A study of Homo sapiens with 6 samples.

Results

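The 9 genes described here are the TGF-beta ligands TGFB1, TGFB2 and TGFB3, the latency protein gene LTBP1, the receptor genes TGFBR1, TGFBR2 and TGFBR3, the signal transducer gene SMAD3, and TGFBI, a gene named for its induction by TGF-beta. They were taken by gene symbol from the 28862 genes of the count table, and all 9 had a row there. The study sequenced mRNA of SH-SY5Y, a human line cloned from the SK-N-SH neuroblastoma culture that has a neuron-like, catecholaminergic character. It set 3 libraries labelled as SMN1 overexpression against 3 libraries from the same line given a control plasmid. SMN1 encodes the survival motor neuron protein, which assembles the small ribonucleoproteins of the splicing machinery, and the series' title ties the experiment to neuropathic pain. The labels name neither the vector nor the time after its delivery, nor do they say that replicate libraries are separate cultures, so the p-values below measure only the spread between these libraries.

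TGF-beta is secreted in a latent complex, held inactive by its own propeptide and tethered to the matrix through latent TGF-beta binding proteins such as the LTBP1 product. Once released, the dimer binds the type II receptor encoded by TGFBR2, which phosphorylates the type I receptor encoded by TGFBR1, and this kinase phosphorylates SMAD2 and SMAD3, which enter the nucleus with SMAD4. The pathway is known in many tissues for matrix gene expression and growth arrest, and in neural crest lineages for effects on differentiation.

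The libraries held 32664151, 40275498 and 31740870 reads assigned to genes in the SMN1-labelled group and 30827766, 31286361 and 30379242 in the control plasmid group. SMN1 itself had 14.7, 16.6 and 16.6 CPM (counts scaled to a common library size) in the libraries labelled SMN1 overexpression, against 20.03, 20.43 and 19.56 CPM in the control plasmid libraries. The gene was therefore lower, not higher, in the libraries that carry its name (log2 fold change -0.32, SE 0.06, edgeR adjusted p = 9.4e-05), with the limit that SMN1 and its near-identical copy SMN2 share reads and cannot be told apart safely. Every direction given below is that of the SMN1-labelled libraries relative to the control plasmid libraries, as labelled. Whether the labels were exchanged, which would turn every direction, or whether a plasmid transcript escaped the counting was not tested. Of the 10 adrenergic neuroblastoma markers, 9 reached 1 CPM in at least 1 library, and the summed level of all 10 ran from 19980 to 20990 CPM in the SMN1-labelled libraries and from 18350 to 19650 CPM in the control plasmid libraries. The exception was TH, the tyrosine hydroxylase gene, which averaged 0.0201 CPM and 0.169 CPM in those groups.

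Expression of the TGF-beta genes differed in both directions. Among the 7 genes that passed the filter on low counts in both groups, 3 were higher (TGFB2, TGFBR1 and TGFBR2), 1 was lower (TGFB1) and 3 did not pass the test (TGFB3, LTBP1 and SMAD3), where a call is an adjusted p of at most 0.05 over all genes tested. These counts stand against a table in which 56.2% of the 15829 tested genes were called, 28.0% higher and 28.2% lower, so a call alone does not set these genes apart. TGFBI was tested as well and called lower, but it passed the filter through the control plasmid libraries alone and had to differ, so it is not counted here. The calls of TGFB1 and TGFB2 were lost when counts were corrected for gene length and GC content. The deposited FPKM values gave a different balance over all genes, with 62.6% of calls being higher, against 49.8% of calls on the counts. The CPM of the groups did not overlap for 5 of the 7 genes, beside 60.7% of all tested genes. The median log2 fold change of the 7 genes was 0.16, and that of all tested genes was 0.000866. Because RNA was taken from whole cultures, fewer cells of a type and less RNA per cell cannot be told apart in any of these values.

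**Figure D1:**
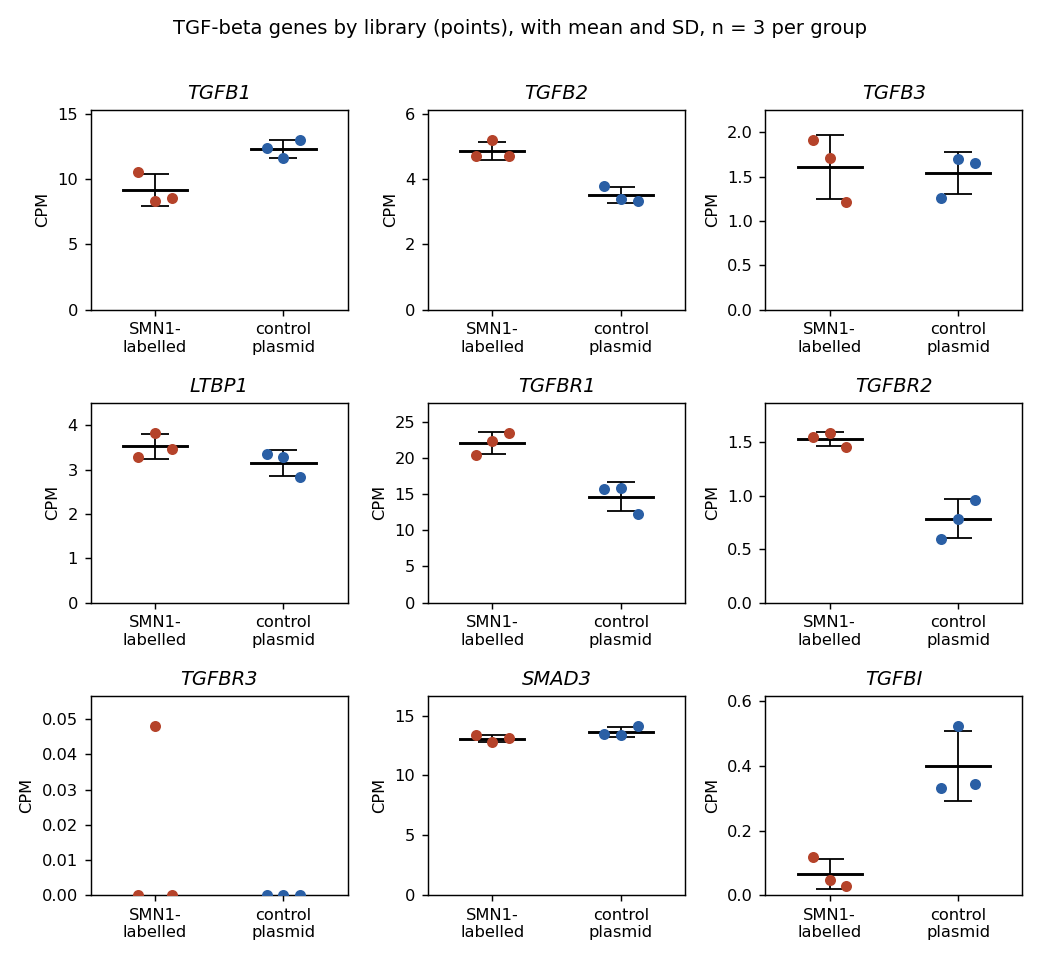
Level of each of the 9 genes in CPM (vertical axes starting at 0 with their own scales) in each of the 3 SMN1-labelled libraries (left, red) and the 3 control plasmid libraries (right, blue), with bars for the mean and SD except for TGFBR3, which had 2 reads in 1 library and 0 in the others. TGFB1 and TGFBI lie lower in the SMN1-labelled libraries, TGFB2, TGFBR1 and TGFBR2 lie higher, and the points of TGFB3 and LTBP1 overlap between the groups.

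The ligand genes TGFB1 and TGFB2 were called in opposite directions, although neither call was kept after correction for gene length and GC content. They have promoters of different base composition, and their sequences are shown to make that contrast visible. The sequences below are the 240 bases before the single RefSeq start site of each gene in assembly GRCh38.p14, given 5′ to 3′ on the strand of the gene: chr19:41353923-41354162 on the minus strand for TGFB1 and chr1:218345096-218345335 on the plus strand for TGFB2. Part of the TGFB2 window is also an exon of TGFB2-AS1 on the opposite strand in GENCODE. The GENCODE start of TGFB2, at base 218346235, lies downstream of this window and differs from the RefSeq start. Capitals mark matches, on either strand, to the GC box (GGGCGG), the AP-1 site (TGANTCA), the cyclic AMP element (TGACGTCA), the E-box (CACGTG), the TATA box (TATAAA) and the core SMAD element (CAGAC).
TGFB1: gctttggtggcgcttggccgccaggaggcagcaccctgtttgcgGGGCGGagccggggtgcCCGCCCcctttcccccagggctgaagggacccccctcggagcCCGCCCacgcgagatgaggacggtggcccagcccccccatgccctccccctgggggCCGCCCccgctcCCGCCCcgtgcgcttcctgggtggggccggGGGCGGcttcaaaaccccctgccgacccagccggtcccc
TGFB2: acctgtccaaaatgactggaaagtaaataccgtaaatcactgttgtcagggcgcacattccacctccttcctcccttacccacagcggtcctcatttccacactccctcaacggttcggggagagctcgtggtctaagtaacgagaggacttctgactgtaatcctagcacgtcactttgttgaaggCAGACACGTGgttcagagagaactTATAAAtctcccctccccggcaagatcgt
The TGFB1 window was 77.5% G and C and held 6 GC boxes and none of the other motifs. The TGFB2 window was 50.4% G and C and held 1 SMAD element and 1 E-box, which share a base, and 1 TATA box that begins 29 bases before the start site. Over all 35116 promoter windows of this length, the median was 58.3% G and C, 42.2% held a GC box, 36.6% a SMAD element, 10.3% a TATA box, 6.32% an AP-1 site, 6.17% an E-box and 1.62% a cyclic AMP element. These letter matches describe the windows and say nothing about which factor was bound.

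Among the ligands, TGFB1 fell and TGFB2 rose on the counts as deposited, but neither call was kept after correction for gene length and GC content, where TGFB1 had a log2 fold change of -0.19 (edgeR adjusted p = 0.0596) and TGFB2 one of 0.23 (edgeR adjusted p = 0.093). TGFB1, which encodes the most widely expressed TGF-beta and lies at chr19:41301587-41353911 on the minus strand (GRCh38), had 10.6, 8.31 and 8.57 CPM in the SMN1-labelled libraries, against 12.41, 11.62 and 12.98 CPM in the control plasmid libraries. The groups did not overlap, and SMN1-labelled library 1 lay closest to the controls. The difference was 1.35-fold lower (log2 fold change -0.44, 95% interval -0.61 to -0.26, edgeR adjusted p = 0.000143). The spread of the SMN1-labelled libraries was wider than counting error alone gives, with a coefficient of variation of 13.5% beside 5.53% from counting, while in the control plasmid libraries these were 5.55% and 5.21%. TGFB1 shares 215 exon bases with HNRNPUL1 on the opposite strand, which was far more abundant at 463.5 ± 6.72 CPM and 555.5 ± 4.38 CPM (SD, n = 3 each) in the SMN1-labelled and control plasmid libraries and was also lower (log2 fold change -0.26, edgeR adjusted p = 2.33e-07). The library kit keeps strand, but no source used here gives the strand setting of the counting, and the part of HNRNPUL1 reads in the TGFB1 values was not tested.

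TGFB2, the ligand gene known in development for roles in the heart, eye and neural crest derivatives, lies at chr1:218346235-218444619 on the plus strand. It had 4.72, 5.19 and 4.71 CPM in the SMN1-labelled libraries, against 3.79, 3.40 and 3.34 CPM in the control plasmid libraries. All SMN1-labelled libraries lay above all controls, by 1.39-fold on average (log2 fold change 0.48, 95% interval 0.24 to 0.71, edgeR adjusted p = 0.000959). TGFB3, a ligand gene best known for palate fusion and lung development, lies at chr14:75958099-75982991 on the minus strand. It had 1.91, 1.71 and 1.22 CPM in the SMN1-labelled libraries, against 1.26, 1.70 and 1.65 CPM in the control plasmid libraries. Its groups overlapped throughout their range, and with 40 to 71 reads per SMN1-labelled library and 38 to 52 per control plasmid library the log2 fold change of 0.07 had a wide 95% interval of -0.34 to 0.48 (edgeR adjusted p = 0.782).

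The makeup of ligand transcripts was measured per length as shares of the summed FPKM of the 3 ligands, without the correction for GC content. TGFB1 made up 74.0%, 68.3% and 72.2% of ligand FPKM in the SMN1-labelled libraries, against 81.4%, 80.0% and 82.0% in the control plasmid libraries. TGFB2 made up 17.7%, 22.9% and 21.4% in the SMN1-labelled libraries, against 13.5%, 12.7% and 11.4% in the control plasmid libraries. Neither ligand's shares overlapped between the groups, and TGFB1 remained the main ligand transcript in all 6 libraries. The mean share of TGFB1 was lower in the SMN1-labelled libraries, at 71.5 ± 2.9%, against 81.1 ± 1.01% (SD, n = 3 each, exact two-sided permutation p = 0.1). The TGFB2 share was higher, at 20.7 ± 2.64%, against 12.5 ± 1.04% (SD, n = 3 each, exact two-sided permutation p = 0.1). For TGFB3 the shares were 7.85 ± 1.23% and 6.35 ± 1.12% in the SMN1-labelled and control plasmid libraries (exact two-sided permutation p = 0.3). With 3 libraries against 3 the smallest p that the exact test can give is 0.1, so no share could pass a threshold of 0.05.

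**Figure D2:**
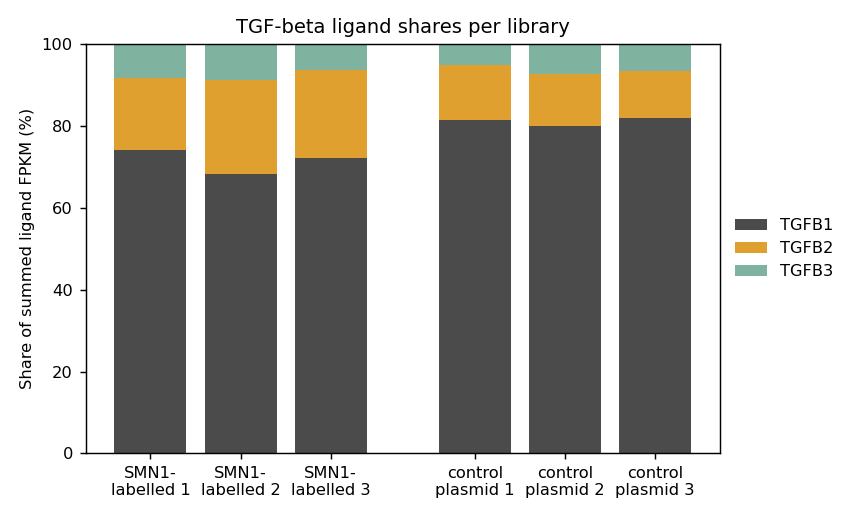
Stacked bars give the percentage of the summed FPKM of the 3 ligand genes held by TGFB1 (grey), TGFB2 (orange) and TGFB3 (green) in each SMN1-labelled library (left) and each control plasmid library (right). The TGFB1 part runs from 68.3% to 74.0% in the SMN1-labelled libraries and from 80.0% to 82.0% in the control plasmid libraries.

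LTBP1, which encodes a matrix protein that carries latent TGF-beta, lies at chr2:32946972-33399509 on the plus strand. It had 3.28, 3.82 and 3.47 CPM in the SMN1-labelled libraries, against 3.36, 3.27 and 2.82 CPM in the control plasmid libraries. The groups overlapped, since SMN1-labelled library 1 lay below control plasmid library 1, and the log2 fold change of 0.16 had a 95% interval of -0.10 to 0.43 (edgeR adjusted p = 0.281).

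Both signalling receptor genes were higher. TGFBR1, the type I receptor kinase gene at chr9:99104038-99154192 on the plus strand, had 20.4, 22.4 and 23.4 CPM in the SMN1-labelled libraries, against 15.7, 15.8 and 12.3 CPM in the control plasmid libraries. Every SMN1-labelled library lay above every control, and control plasmid library 3 was the lowest of the 6. The difference was 1.51-fold (log2 fold change 0.59, 95% interval 0.43 to 0.75, edgeR adjusted p = 5.22e-07).

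TGFBR2, the ligand-binding type II receptor kinase gene at chr3:30606502-30694142 on the plus strand, was expressed at a much lower level. It had 52, 66 and 48 reads in the SMN1-labelled libraries, against 18, 24 and 28 reads in the control plasmid libraries. This gave 1.55, 1.59 and 1.46 CPM in the SMN1-labelled libraries, against 0.599, 0.786 and 0.964 CPM in the control plasmid libraries, again with no overlap. The difference was 1.96-fold, with an interval on the log2 scale of 0.52 to 1.42 around 0.97 (edgeR adjusted p = 0.000519). In the control plasmid libraries the coefficient of variation was 23.3%, close to the 20.7% that counting error alone gives for so few reads.

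Set against each other per length, TGFBR1 made up 93.4 ± 0.667% of receptor FPKM in the SMN1-labelled libraries and 94.7 ± 1.91% in the control plasmid libraries (SD, n = 3 each, exact two-sided permutation p = 0.4). TGFBR2 made up 6.55 ± 0.61% and 5.30 ± 1.91% in the same groups (exact two-sided permutation p = 0.4). The shares overlapped between the groups, and the intervals of the TGFBR1 and TGFBR2 fold changes overlapped as well. TGFBR3, the gene of the co-receptor betaglycan that presents TGF-beta 2 to the type II receptor, lies at chr1:91680343-91906335 on the minus strand. It had 0, 2 and 0 reads in the SMN1-labelled libraries and 0 in each control plasmid library. All of these lie under the limit that a count of 0 allows, which is 3 reads and equals 0.0721 to 0.0912 CPM in the SMN1-labelled libraries and 0.0982 to 0.103 CPM in the control plasmid libraries, so no fold is given. That limit covers counting error only.

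SMAD3, which encodes the transcription factor phosphorylated by the TGFBR1 kinase, lies at chr15:67063763-67195195 on the plus strand and had nearly the same level in all libraries. Its values were 13.3, 12.8 and 13.1 CPM in the SMN1-labelled libraries, against 13.4, 13.4 and 14.1 CPM in the control plasmid libraries. The groups were separated by a margin smaller than the spread within either of them, and the log2 fold change of -0.06 had a narrow 95% interval of -0.20 to 0.07 (edgeR adjusted p = 0.438). The sign turned on the deposited FPKM values, where log2(FPKM + 0.1) gave 0.02.

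TGFBI, which encodes a secreted matrix protein also called keratoepithelin, lies at chr5:136028895-136063818 on the plus strand. It had 4, 2 and 1 reads in the SMN1-labelled libraries, against 10, 16 and 10 reads in the control plasmid libraries. In CPM these were 0.119, 0.0481 and 0.0304 in the SMN1-labelled libraries, against 0.333, 0.524 and 0.344 in the control plasmid libraries. The summed reads were 7 and 36 in those groups, and the ratio of levels, scaled for library size, was 0.161 with a 95% counting interval of 0.0606 to 0.368. The fitted log2 fold change was -2.56 (95% interval -3.62 to -1.50, edgeR adjusted p = 0.000163), and it was -3.20 without SMN1-labelled library 1, which holds 4 of the 7 reads. The gene passed the filter on low counts, set near 0.317 CPM, through the control plasmid libraries alone, 0 of 3 SMN1-labelled libraries being above it and 3 of 3 controls, so its inclusion already required a difference. In neither group does the FPKM of TGFBI exceed 0.06, which places it near the limit of detection.

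Per length and without the correction for GC content, the order of mean levels changed at its top. The change did not hold in every library, since in SMN1-labelled library 1 TGFB1, at 3.13 FPKM, stood above TGFBR1, at 2.89 FPKM. In the SMN1-labelled libraries TGFBR1 came first at 3.15 ± 0.238 FPKM (SD, n = 3) and TGFB1 second at 2.73 ± 0.352 FPKM, with ranges of 2.89 to 3.36 and 2.48 to 3.13 that overlap. In the control plasmid libraries TGFB1 came first at 3.46 ± 0.159 FPKM and TGFBR1 second at 1.96 ± 0.289 FPKM, with no overlap. Below them the order was the same in both groups, namely SMAD3, TGFB2, LTBP1, TGFB3, TGFBR2, TGFBI and TGFBR3. SMAD3 stood at 1.28 ± 0.0231 FPKM in the SMN1-labelled libraries and 1.25 ± 0.0231 FPKM in the control plasmid libraries, and TGFB2 at 0.78 ± 0.0436 FPKM and 0.533 ± 0.0416 FPKM. The neighbours TGFB3 and TGFBR2 overlapped in the SMN1-labelled libraries, at 0.23 to 0.35 and 0.21 to 0.23 FPKM, and did not in the control plasmid libraries, at 0.22 to 0.3 and 0.08 to 0.13 FPKM. TGFBI and TGFBR3 also overlapped in the SMN1-labelled libraries.

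Gene length and base composition moved with the comparison over the whole table. In the decile of genes richest in GC, from 61.6% to 75.3%, the median log2 fold change was -0.25 and 53.0% were lower, whereas from 38.8% to 41.3% GC the median was 0.24 and 49.9% were higher. TGFB1, at 63.5% GC, lies in the first of these ranges, and TGFB2 and TGFBR1, at 38.9% and 39.0% GC, lie in the second. After correction of the counts for length and GC within each library, the TGFB1 and TGFB2 differences shrank to the values given above, and neither call was kept. The receptors kept their calls, although TGFBR1 also shrank, from 0.59 to 0.31 (edgeR adjusted p = 0.00116). TGFBR2 stood at 0.89 (edgeR adjusted p = 0.00159). The value of TGFBI, which had to differ to be tested, was -2.62.

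**Figure D3:**
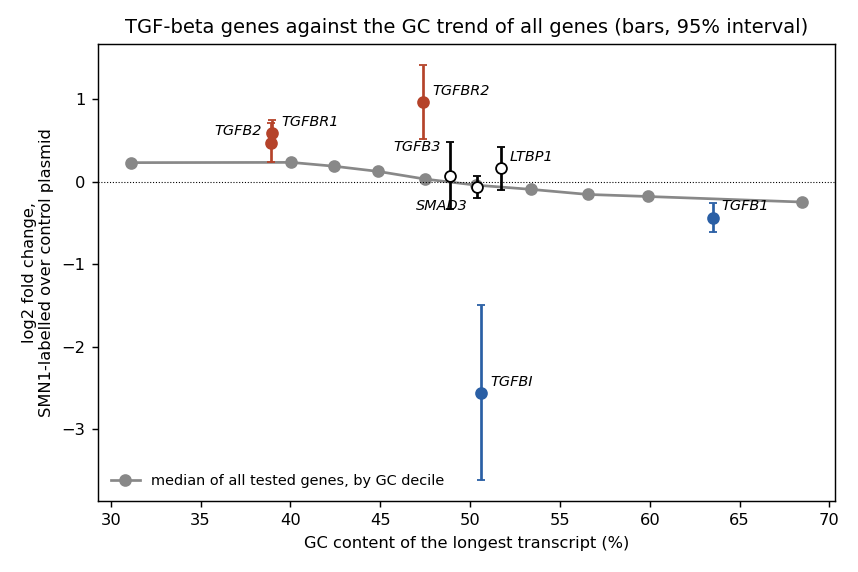
Log2 fold change (SMN1-labelled over control plasmid, vertical axis) against the GC content of the longest transcript (percent, horizontal axis) for the 8 tested genes, with 95% intervals as bars, red for higher, blue for lower and open for not called, and grey points for the median of all tested genes in each GC decile, drawn at the middle of its range. TGFB1, TGFB2 and TGFBR1 deviate from 0 in the direction of the grey trend, while TGFBR2 and TGFBI lie near the middle of the GC range, where the trend is close to 0.

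**Figure D4:**
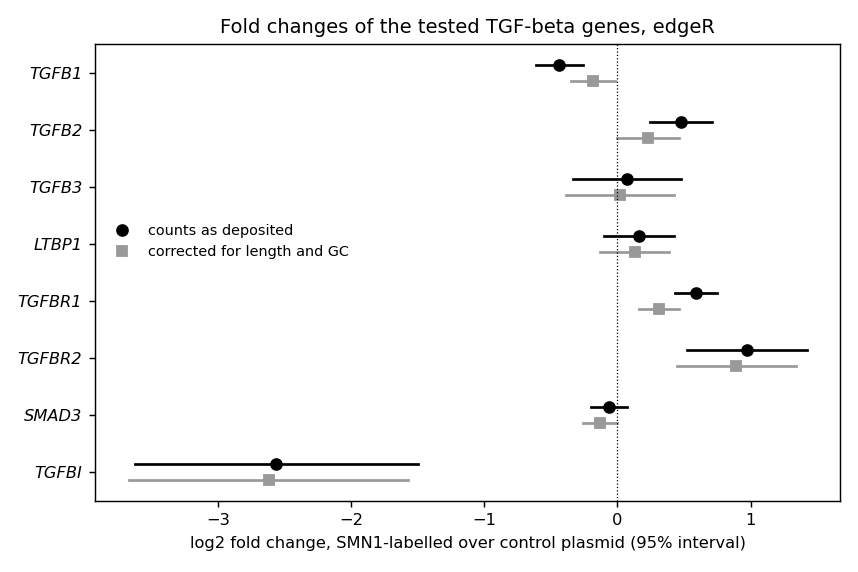
Log2 fold change with 95% interval (horizontal axis, SMN1-labelled over control plasmid) of the 8 tested genes from the counts as deposited (black circles) and after correction for gene length and GC content (grey squares). The values of TGFB1 and TGFB2 move towards 0 with the correction, from -0.44 to -0.19 and from 0.48 to 0.23. That of TGFBR1 also moves towards 0, from 0.59 to 0.31, while those of TGFBR2 and TGFBI change little.

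The genes whose pattern over the 6 libraries lay nearest to 3 of these genes were found by the root mean square distance of centred log2 CPM among 10063 genes at a mean of at least 5 CPM. For TGFB1 they were TRIR, EBF4 and ALKBH7, at distances of 0.0399, 0.052 and 0.0543 log2 units. For TGFB2 they were FBXO10, FAM199X and BEND7, at 0.0233, 0.0273 and 0.0319. For TGFBI the nearest were farther away, PDZRN3 at 0.267, APOE at 0.352 and RET at 0.361. TGFBI had 7 and 36 summed reads in the SMN1-labelled and control plasmid libraries and had to differ to be tested. Its centred values are therefore a group difference with counting noise. Those of TGFB1 and TGFB2 also hold a group difference, in a table where 56.2% of tested genes were called, so near neighbours do not set them apart. Shared regulation was not tested for any of the 3 genes. RET, a receptor tyrosine kinase gene of neural crest cells, averaged 12.5 CPM in the SMN1-labelled libraries and 49.4 CPM in the control plasmid libraries, and APOE, a lipid carrier gene, 7.27 and 23.4 CPM.

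Around the ligands, 2 of 11 tested genes of latency and activation were higher (18.2%, against 28.0% of all tested genes), 1 was lower (9.09%, against 28.2%) and 8 were not called, with a median log2 fold change of -0.01. After the length and GC correction 3 were higher and 3 lower, with a median of 0.05. Over all 15829 tested genes the correction gave 3582 higher and 3962 lower. The corrected counts of the lists below stand beside the same whole-table counts. ITGB1, the integrin beta subunit gene that pairs with many alpha subunits, averaged 175.3 ± 6.7 CPM in the SMN1-labelled libraries and 124.2 ± 1.23 CPM in the control plasmid libraries (SD, n = 3 each, log2 fold change 0.50, edgeR adjusted p = 5.06e-11), and its corrected value was 0.23. ITGB5, a partner of the alpha V integrin that can activate latent TGF-beta, was higher by 0.25 on the log2 scale (edgeR adjusted p = 1.03e-05). LTBP3, another latent TGF-beta binding protein gene, was lower by a log2 fold change of -0.24 (edgeR adjusted p = 3.15e-05), or -0.12 when corrected.

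Of 12 receptor partners tested, 4 were higher (33.3%, against 28.0% of all tested genes), 5 were lower (41.7%, against 28.2%) and 3 were not called, with a median log2 fold change of -0.02. ENG, the gene of the co-receptor endoglin, averaged 9.02 ± 0.393 CPM in the SMN1-labelled libraries and 17.5 ± 0.209 CPM in the control plasmid libraries (SD, n = 3 each, log2 fold change -0.96, edgeR adjusted p = 2.47e-11). BAMBI, whose product is a pseudoreceptor that dampens type I receptor signalling, averaged 2.25 ± 0.0896 CPM and 5.08 ± 0.563 CPM in the same groups (log2 fold change -1.18, edgeR adjusted p = 3e-08). TAB2 and MAP3K7, which encode the adaptor and the kinase TAK1 of the SMAD-independent arm, were higher by 0.40 and 0.41 on the log2 scale (edgeR adjusted p = 3.32e-08 and 9.4e-07). After the length and GC correction the values of ENG and BAMBI were -0.75 and -1.03, whereas those of TAB2 and MAP3K7 were 0.14 and 0.12.

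In the SMAD relay and its regulators, 11 of 21 tested genes were higher (52.4%, against 28.0% of all tested genes), 1 was lower (4.76%, against 28.2%) and 9 were not called, with a median log2 fold change of 0.19. The lower one was SMAD6, an inhibitory SMAD gene, which averaged 1.71 ± 0.277 CPM in the SMN1-labelled libraries and 4.73 ± 0.257 CPM in the control plasmid libraries (SD, n = 3 each, log2 fold change -1.48, edgeR adjusted p = 3.48e-09). The other inhibitory SMAD gene, SMAD7, named after its value was seen, had 5.63 ± 0.637 CPM and 6.17 ± 0.676 CPM in those groups (edgeR adjusted p = 0.286). Among the higher genes, SMAD2, the partner of SMAD3, had a log2 fold change of 0.31 (edgeR adjusted p = 3.93e-06), SMURF2, a ubiquitin ligase gene of the pathway, 0.50 (edgeR adjusted p = 7.2e-07), and USP9X, a deubiquitinase gene that acts on SMAD4, 0.37 (edgeR adjusted p = 5.16e-08). With the length and GC correction the list had 7 higher and 2 lower genes and a median of 0.10, and SMAD2 lost its call at 0.10 (edgeR adjusted p = 0.0654). The corrected values were 0.22 for SMURF2, 0.0972 for USP9X (edgeR adjusted p = 0.0444) and -1.42 for SMAD6.

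In the activin and nodal branch, which shares SMAD2 and SMAD3 with TGF-beta, 5 of 8 tested genes were higher (62.5%, against 28.0% of all tested genes), 1 was lower (12.5%, against 28.2%) and 2 were not called. After the length and GC correction the counts in each direction were the same, but the genes were not. ACVR2A lost its higher call at 0.20 (edgeR adjusted p = 0.22), and GDF15 gained one at 0.46 (edgeR adjusted p = 0.00193). ACVR2B, an activin type II receptor gene, averaged 29.97 ± 1.84 CPM in the SMN1-labelled libraries and 19.1 ± 2.29 CPM in the control plasmid libraries (SD, n = 3 each, log2 fold change 0.65, edgeR adjusted p = 1.6e-08). The type I receptor gene ACVR1B had a log2 fold change of 0.36 (edgeR adjusted p = 3.43e-06), and the ligand gene GDF11 one of 0.24 (edgeR adjusted p = 5.17e-06). After the correction these were 0.47 for ACVR2B, 0.37 for ACVR1B and 0.11 for GDF11. FST, the gene of the activin-binding inhibitor follistatin, averaged 0.9 ± 0.185 CPM and 2.51 ± 0.42 CPM in the SMN1-labelled and control plasmid libraries (log2 fold change -1.49, edgeR adjusted p = 7.42e-07). ACVR2B and ACVR1B were thus higher, as were TGFBR1 and TGFBR2, but receptor genes did not all go the same way. ACVRL1, a type I receptor gene listed with the receptor partners, was lower (log2 fold change -0.49, edgeR adjusted p = 6.38e-05). After the correction its value was -0.39 (edgeR adjusted p = 0.000775).

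Of the known target genes tested, 17 of 30 were lower (56.7%, against 28.2% of all tested genes), 9 were higher (30%, against 28.0%) and 4 were not called, with a median log2 fold change of -0.37, which was -0.28 after the length and GC correction with 16 lower and 9 higher. BGN, counted among the lower genes before and after the correction, had 2, 5 and 5 reads in the SMN1-labelled libraries, against 28, 18 and 19 in the control plasmid libraries. It passed the filter on low counts through the control plasmid libraries alone and had to differ, so its call adds nothing to these counts. The leading lower genes encode collagens and an intermediate filament. COL3A1 averaged 25.6 ± 0.118 CPM in the SMN1-labelled libraries and 65.9 ± 2.16 CPM in the control plasmid libraries (SD, n = 3 each, log2 fold change -1.36, edgeR adjusted p = 2.13e-17). COL1A1 averaged 7.43 ± 1.28 CPM and 21.7 ± 1.33 CPM in the same groups (log2 fold change -1.56, edgeR adjusted p = 5.8e-13). COL5A1 had a log2 fold change of -1.24 (edgeR adjusted p = 2.45e-12), and VIM, the vimentin gene, one of -1.03 (edgeR adjusted p = 8.96e-17).

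Some genes of the pathway are named here after their values had been seen. TIMP3, a metalloproteinase inhibitor gene among the known targets, averaged 20.97 ± 0.213 CPM in the SMN1-labelled libraries and 11.6 ± 0.492 CPM in the control plasmid libraries (SD, n = 3 each, log2 fold change 0.85, edgeR adjusted p = 4.4e-11). The matricellular genes CCN2 and CCN1, both among the known targets, went opposite ways. CCN2 averaged 4.01 ± 0.415 CPM and 2.62 ± 0.376 CPM in those groups (log2 fold change 0.62, edgeR adjusted p = 0.00042), and CCN1 5.27 ± 0.463 CPM and 12.6 ± 0.361 CPM (log2 fold change -1.25, edgeR adjusted p = 1.43e-11). Outside the target list, PMEPA1, a feedback inhibitor gene listed with the SMAD regulators, averaged 26.6 ± 1.28 CPM and 20.9 ± 0.787 CPM in those groups (log2 fold change 0.34, edgeR adjusted p = 9.14e-06). INHBA, the activin subunit gene listed with the activin branch, averaged 3.30 ± 0.143 CPM and 1.94 ± 0.407 CPM in those groups (log2 fold change 0.76, edgeR adjusted p = 0.000169).

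**Figure D5:**
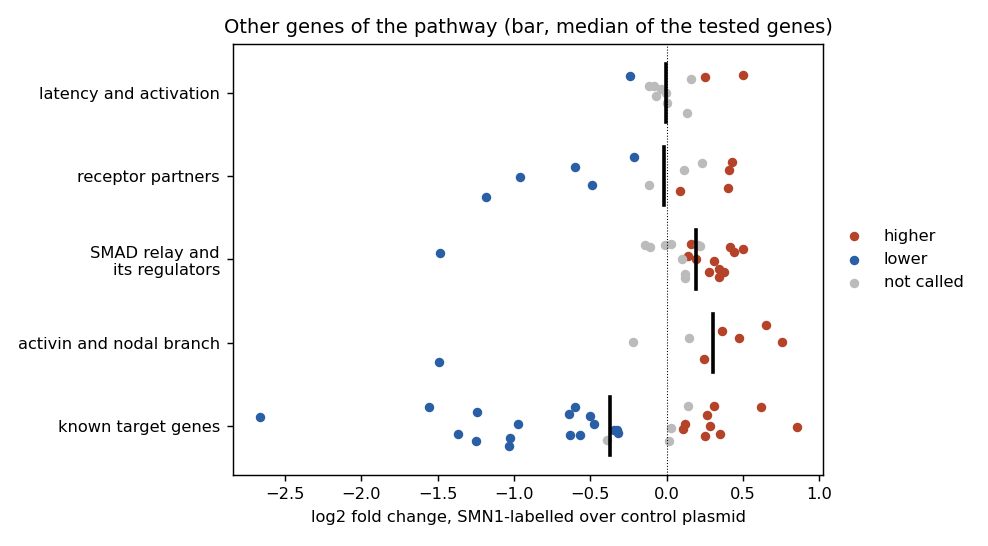
Log2 fold change (horizontal axis, SMN1-labelled over control plasmid) of each tested gene in 5 lists of the wider pathway, one row per list with random vertical spread, red for higher, blue for lower and grey for not called, and a black bar for the list's median. Known target genes have a median of -0.37, while the SMAD relay and the activin and nodal branch have medians of 0.19 and 0.30.

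Markers of other cell states were measured beside these target genes. The summed level of 9 mesenchymal neuroblastoma markers ran from 156.9 to 164.5 CPM in the SMN1-labelled libraries and from 279.1 to 284.1 CPM in the control plasmid libraries, with 0 higher, 6 lower and 3 not called. This and the following marker counts stand beside 28.0% higher and 28.2% lower over all tested genes. VIM, FN1 and SNAI2 stand both in the mesenchymal list and among the known targets, and they make up most of its sum. Without them the other 6 summed to 14.1 to 15.1 CPM in the SMN1-labelled libraries and 21.6 to 23.7 CPM in the control plasmid libraries, with 0 higher, 3 lower and 3 not called. The summed level of 9 fibroblast markers, which include COL1A1, COL1A2 and COL3A1, ran from 227.6 to 243.9 CPM and from 301.1 to 312.7 CPM in those groups, with 1 higher and 4 lower of 7 tested. Without the 3 collagen genes shared with the known targets, the sums were 193.1 to 211.1 CPM and 211.3 to 229.0 CPM in those groups, with 1 higher and 2 lower of 5 tested. THY1 alone, at a mean of 159 CPM and 178.2 CPM in those groups, made up most of these sums. One of the lower genes in both counts was FAP, with 3, 6 and 5 reads in the SMN1-labelled libraries, against 10, 13 and 22 in the control plasmid libraries. It passed the filter on low counts through the control plasmid libraries alone and had to differ, so its call adds nothing. Outside the collagens the other lower gene was THY1 (log2 fold change -0.16, edgeR adjusted p = 0.00198). THY1 lost that call after the length and GC correction (edgeR adjusted p = 0.0565). The 4 Schwann cell markers summed to 2.37 to 2.63 CPM and 3.79 to 5.34 CPM, with 2 of 3 tested being lower, and the 6 blood and endothelial markers each stayed under 1 CPM. None of the markers found was at 0 in all libraries. SOX10, FOXD3, CDH19, MEOX2, AIF1 and HBB were not found in the count table by symbol or identifier. The Schwann cell list was therefore left with 4 of its 7 markers. The part of these cell states in the TGF-beta values was not tested.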

How the data were processed

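Stranded libraries of polyadenylated RNA were made and sequenced by the authors, per the labels' protocols. HISAT2, DESeq2 and GRCh38 are named, per the submitters' processing notes, and no source used here gives the counting tool or its strand setting. The count table (28862 genes) was deposited as whole-number read counts per gene. The FPKM table (28501 genes) was deposited by the authors as values already scaled for gene length and library size.

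Counts were tested in R 4.3.3 with edgeR 4.0.16 (TMM factors, filterByExpr with a minimum count of 10, quasi-likelihood test, Benjamini-Hochberg adjustment over 15829 genes), 3 libraries against 3, and a gene was called where its adjusted p did not exceed 0.05. DESeq2 1.42.0, limma 3.58.1 (voom and log2 FPKM with pseudocounts of 0.1 and 1), other scalings and filters, left-out libraries and a length and GC correction by splines were the alternatives. CPM use the TMM-scaled library sizes. FPKM shares were compared by exact permutation. The methods were tested on simulated data. Positions, lengths and GC come from GENCODE v29 on GRCh38, and IDs were matched without version. Promoters are RefSeq GRCh38.p14 and were found for all 9 genes, 4 of them with 1 window. Libraries of a group differed by more than counting noise.

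Of the 9 genes, 8 passed the filter, 7 of them in both groups. The 9 genes, the pathway lists and the markers were chosen with earlier results of these data known, so their counts are descriptions. Genes named beyond the 9 were SMN1, up to 4 called genes per list in order of p, and the 3 nearest genes to TGFB1, TGFB2 and TGFBI. HNRNPUL1 was added for its overlap, TH as the adrenergic marker under 1 CPM, and SMAD7, TIMP3, CCN1, CCN2, PMEPA1 and INHBA after their values were seen. ACVRL1, ACVR2A, GDF15, THY1, BGN and FAP were also named after their values were seen.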

Additional observations from a re-analysis of the deposited data

How the results depend on the processing

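Calls of the 8 tested genes, TGFBI included, came to 3 higher and 2 lower under DESeq2, limma-voom, both other scalings of edgeR, no filter, log2(FPKM + 1) without a filter, and each left-out library. TGFBI passed the default filter through the control plasmid libraries alone and had to differ, so its call adds nothing to these counts. Only 1 of the 8 was called lower with a filter of 1 CPM in 3 libraries (TGFBI not tested), with the length and GC correction (TGFB1 lost), on filtered log2(FPKM + 0.1) and log2(FPKM + 1) (TGFBI not tested), and when a fold of 1.5 was required (TGFB1 lost). In the last 4 of these settings 2 genes were higher, since TGFB2 was lost to the correction and to the fold, and TGFBR2 was not tested on filtered FPKM. Over all genes, 2963, 2965 and 2883 were lower on log2(FPKM + 0.1), log2(FPKM + 1) and log2(FPKM + 1) without a filter, against 4466 on counts. Of 15829 tested genes, 3827 were higher and 3883 lower under DESeq2, and 4406 and 4478 under limma-voom. TGFB3, not called, ranged from -0.05 to 0.23 on the log2 scale over left-out libraries, being -0.0543 without SMN1-labelled replicate 1 and -0.0537 without control plasmid replicate 1. SMAD3, not called, turned to 0.0247, 0.0149 and 0.0149 on the same FPKM settings. TGFBI shrank to -0.0562 on log2(FPKM + 1) without a filter, where the pseudocount far exceeds its level. The replicate numbers did not pair the libraries (correlations of same-numbered deviations 0.00528, 0.0133 and 0.003), and with the number as a replicate block 4326 genes were higher and 4382 lower, with 3 higher and 2 lower among the 8. For TGFB3, TGFBR2 and TGFBI the read number limits the precision.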
